A study of Mus musculus with 17 samples.

Results

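The entry of a cell into the cycle is set by a small group of genes, and 10 of them were followed here in cardiac fibroblasts (CFs) after myocardial infarction (MI). They were the D-type cyclins *Ccnd1*, *Ccnd2* and *Ccnd3*, the E-type cyclins *Ccne1* and *Ccne2*, the transcription factor *E2f1*, and the cyclin-dependent kinase inhibitors *Cdkn1a*, *Cdkn1b*, *Cdkn2a* and *Cdkn2b*. They were taken by symbol from 31053 genes listed, each matched 1 row, and all 10 had enough counts to be tested among 14030 genes. The data were bulk RNA-seq counts by MARS-seq, which reads the 3′ ends of poly-A transcripts, for 17 libraries of sorted CFs. All cells came from C57BL/6 mice of genotype Collagen1a1-GFP+, aged 8 to 10 weeks, after MI by ligation of the left anterior descending coronary artery. The groups differed in the time of collection, and comprised 1 day post infarction (dpi) with 3 libraries, 2 dpi with 3, 3 dpi with 4, 4 dpi with 3, 5 dpi with 1 and 6 dpi with 3, and no library of an uninfarcted heart was analysed here. The reporter marks cells in which the *Col1a1* promoter is active, and cells carrying CD31 or CD45 had been removed by sorting after enzymatic digestion. The number of hearts behind each library was not given in the sources used here. The count columns of 3 dpi are named in another form than those of all other days, which share a numbered series. Whether 3 dpi was prepared or sequenced apart was not given. Differences of 3 dpi from the other days cannot be told apart from such a step.

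In resting cells, the pocket proteins of the retinoblastoma family hold E2F factors inactive. Growth signals raise the D-type cyclins, which with Cdk4 and Cdk6 begin to phosphorylate the pocket proteins, and the E-type cyclins, themselves induced by E2F, complete this step with Cdk2 and open S phase. The inhibitors of the INK4 family (*Cdkn2a*, *Cdkn2b*) block Cdk4 and Cdk6, while those of the CIP/KIP family (*Cdkn1a*, *Cdkn1b*) bind cyclin-kinase complexes more widely. Cardiac fibroblasts are mostly quiescent in the uninjured heart and proliferate in the first days after an infarct.

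Of the 10 genes, *Ccne1* stood out. It was about as low at 1 and 2 dpi as at 6 dpi and rose at 3 dpi. *Cdkn2a*, close to the limit of counting on the first days, was also higher from 3 to 5 dpi, a window that the study drew with these libraries in view, than before. *Cdkn1b* differed across the time course and was highest in the 4 libraries of 3 dpi. The D-type cyclins, counted at 509 reads or more in every library, passed the test in no comparison made with all 17 libraries.

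The promoters of the 3 genes that passed a test are shown first, because E2F, Sp1 and NF-Y, which reads the word CCAAT, are known regulators of cell cycle genes. The sequences are from RefSeq (GRCm38.p6), run 5′ to 3′ on the strand of the gene, and end before the first start annotated within the window in RefSeq or GENCODE. Capitals mark matches, on either strand, to the E2F words TTTCCCGC, TTTCGCGC, TTTGCCGC and TTTGGCGC, to the Sp1 word GGGCGG, and to CCAAT. *Cdkn2a* has a pair of promoters, 1 for the transcript that begins further upstream and encodes p19Arf (window 1) and 1 for the transcript that encodes p16Ink4a (window 2). Window 2 lies inside the span of the longer transcript, and its start site is 12461 bases downstream of the gene's start.
Ccne1, chr7:38107535-38107740, minus strand: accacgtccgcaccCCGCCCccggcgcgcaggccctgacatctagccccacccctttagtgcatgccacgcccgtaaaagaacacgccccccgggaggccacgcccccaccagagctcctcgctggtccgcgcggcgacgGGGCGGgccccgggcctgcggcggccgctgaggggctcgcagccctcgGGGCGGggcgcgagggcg
Cdkn1b, chr6:134920151-134920400, plus strand: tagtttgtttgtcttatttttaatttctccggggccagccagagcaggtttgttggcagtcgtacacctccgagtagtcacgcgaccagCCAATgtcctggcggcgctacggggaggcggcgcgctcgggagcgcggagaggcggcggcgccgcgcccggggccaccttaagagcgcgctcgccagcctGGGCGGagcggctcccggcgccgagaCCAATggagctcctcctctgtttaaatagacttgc
Cdkn2a window 1, chr4:89294654-89294869, minus strand: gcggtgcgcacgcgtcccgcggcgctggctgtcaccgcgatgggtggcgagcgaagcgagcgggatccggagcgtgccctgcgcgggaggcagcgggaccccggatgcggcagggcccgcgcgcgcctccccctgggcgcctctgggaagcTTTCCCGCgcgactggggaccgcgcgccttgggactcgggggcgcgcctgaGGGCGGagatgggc
Cdkn2a window 2, chr4:89282193-89282442, minus strand: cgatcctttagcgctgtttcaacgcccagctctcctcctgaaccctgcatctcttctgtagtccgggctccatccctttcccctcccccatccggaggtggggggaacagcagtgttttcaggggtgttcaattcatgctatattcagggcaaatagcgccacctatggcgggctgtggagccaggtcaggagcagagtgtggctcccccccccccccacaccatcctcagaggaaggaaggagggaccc
In windows of 300 bases around RefSeq start sites, an E2F word was present in 2.26% of 32851 windows, GGGCGG in 35.7% and CCAAT in 37.4%. The 10 genes had 10 windows for 7 of them, and *Ccnd1*, *Ccnd2* and *Ccne2* were not among these. Only window 1 of *Cdkn2a* held one of the 4 E2F words, TTTCCCGC, which begins at position -99 from the RefSeq start site. Other forms of the E2F site were not searched. The start site of the *E2f1* window lies 466 bases downstream of the gene's start in GENCODE, so the bases before that start were not searched. The *Ccne1* window held GGGCGG on either strand at 4 positions, and the *Cdkn1b* window held CCAAT before the start site at positions -161 and -35. The AP-1 words TGAGTCA and TGACTCA, the TATA word TATAAA and the E-box CACGTG were also searched, were present in 5.2%, 13.6% and 7.15% of all windows, and had no match in the windows of these genes.

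Total counts per library ranged from 8021815 to 22029938, so that 3 counts, the smallest number read here as a signal, correspond to 0.136 to 0.374 CPM, the counts of a gene scaled by the library's total. Levels are given as log2 CPM. The markers of the sort were as labelled, with the summed level of 6 fibroblast genes between 11700 and 37700 CPM and that of 6 endothelial genes between 16.9 and 85.1 CPM. The fibroblast genes did not move together. From 3 to 5 dpi against 1 to 2 dpi, edgeR called 3 of the 6 higher and 1 lower, beside 5.25% and 2.24% of all genes. Among 8 leukocyte genes, *Cd3e* was at 0 in all 17 libraries and *Ptprc*, the gene of CD45, was at 0 in 12, *S100a8* was under 10 counts in 15, as was the endothelial gene *Cdh5*, but the summed level was 40.1 to 180 CPM at 3 dpi against 8.67 to 31.0 CPM on the first 2 days, and *Lyz2* was higher from 3 to 5 dpi (log2 fold change 2.92, adjusted p = 0.011, edgeR). Counts of *Xist* exceeded those of 4 Y-linked genes in 7 libraries, namely 1 dpi replicate 1 and all of 4 and 6 dpi, and were fewer in the other 10. The comparison of 4 against 3 dpi therefore cannot be told apart from a difference in this pattern. Comparisons of 6 dpi with 1 dpi and with 3 to 5 dpi are mixed with it in part, since most libraries on the other side had more Y-linked counts. The comparison of 3 to 5 dpi with 1 to 2 dpi is also mixed with it, through 4 dpi and through 1 dpi replicate 1. There edgeR called all 4 Y-linked genes lower (median log2 fold change -2.94) and *Xist* lower (-4.80). That of 2 with 1 dpi is mixed through 1 dpi replicate 1. Within 3 dpi, replicate 2 stood furthest from the others, since its chi-square against each of them, divided by its degrees of freedom, was 155 to 210, and that among the other 3 libraries 22.1 to 35.1. Replicate 3 of 4 dpi (97.1 and 122, against 21.7 between the other libraries of that day) and replicate 3 of 6 dpi (88.8 and 112, against 48.5) stood apart likewise. As in any bulk sample, fewer cells with a transcript and less of it per cell cannot be told apart.

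**Figure D1:**
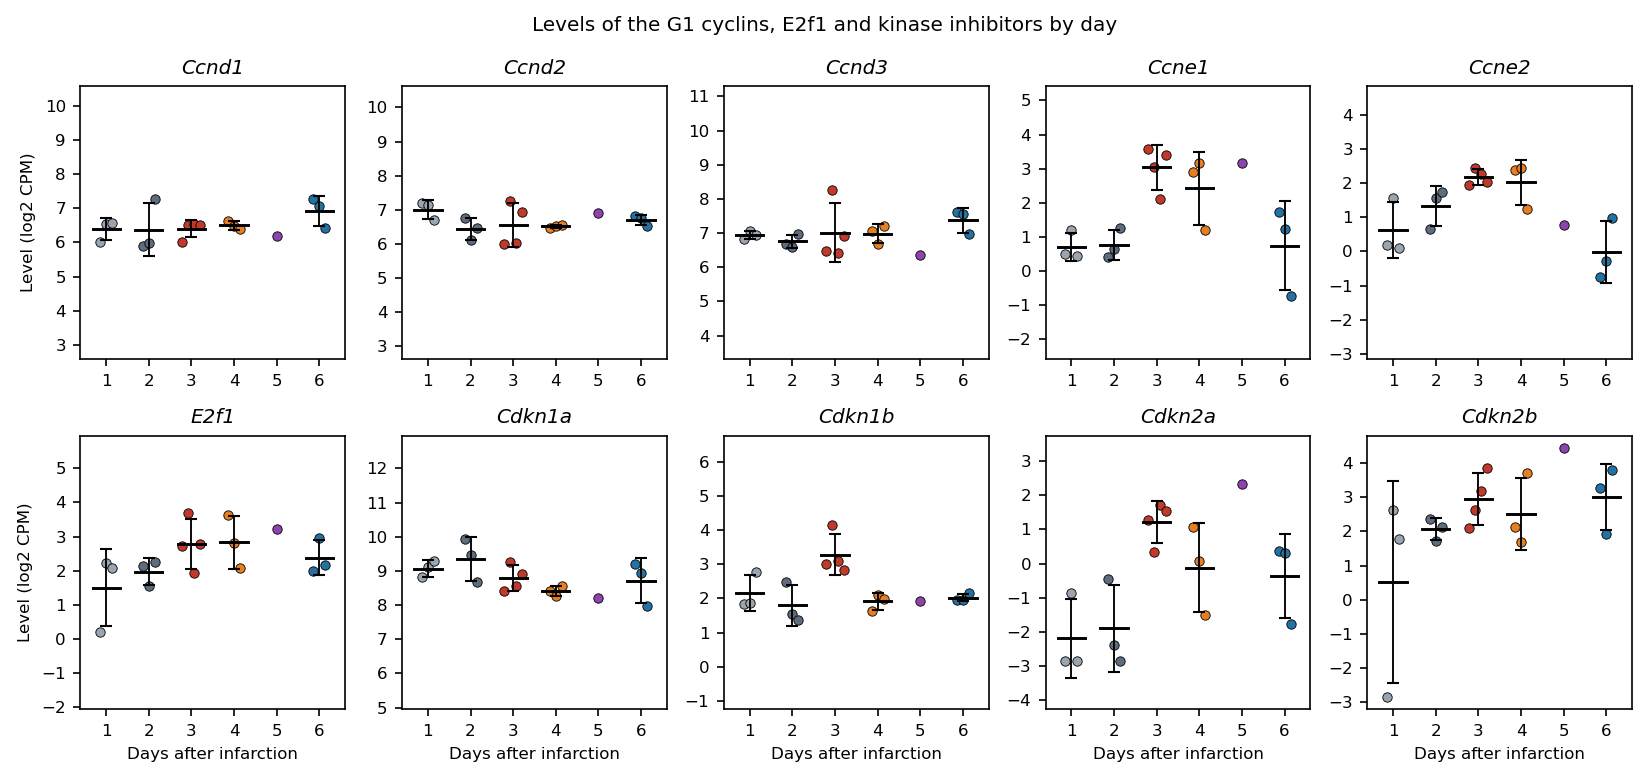
Level of each of the 10 genes in log2 CPM (vertical axes, the same span in every panel) against days after infarction, with 1 point per library, the mean as a bar and the SD as whiskers, and no whiskers at 5 dpi, which is 1 library. *Ccne1* lies at 0.40 to 1.26 at 1 and 2 dpi and at 2.10 to 3.58 at 3 dpi, and the *Cdkn1b* libraries of 3 dpi lie above all others, while the day means of the D-type cyclins span 0.57 to 1.03.

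The D-type cyclins are the sensors of mitogenic signals. *Ccnd1* (cyclin D1, chromosome 7, 144929931 to 144939925, minus strand, GRCm38) is the most studied of them and is a classical target of growth factor and integrin signalling. Its level was 6.01, 6.55 and 6.58 at 1 dpi, 5.89, 5.97 and 7.26 at 2 dpi, and 6.02, 6.51, 6.55 and 6.51 at 3 dpi. It was 6.63, 6.49 and 6.38 at 4 dpi, 6.19 in the 5 dpi library, and 7.27, 7.06 and 6.42 at 6 dpi. Replicates 1 and 2 of 6 dpi and replicate 3 of 2 dpi were the highest, and the days overlapped. The log2 fold change of 3 to 5 dpi against 1 to 2 dpi was -0.09 (SE 0.23), with an adjusted p of 0.87 (quasi-likelihood F-test of edgeR, Benjamini-Hochberg over the 14030 genes, as for every adjusted p that follows). Against 6 dpi it was -0.59 (SE 0.28, adjusted p = 0.17).

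*Ccnd2* (cyclin D2, chromosome 6, 127125162 to 127152193, minus strand) ranged from 5.99 to 7.26 over the 17 libraries, with a median of 6.69. Its day means were lowest at 2 dpi with 6.44 ± 0.32 and highest at 1 dpi with 7.01 ± 0.28 (SD, n = 3 each). At 3 dpi the libraries fell into a lower pair, 5.99 and 6.03, and an upper pair, 6.94 and 7.26, so that a single day covered the whole range of the time course. *Ccnd3* (cyclin D3, chromosome 17, 47505051 to 47599691, plus strand), the D-type cyclin most often linked to lymphoid and muscle tissue, ranged from 6.35 to 8.26 with a median of 6.93. Its highest value was 3 dpi replicate 2, the library that stood apart, while the other 3 dpi libraries were at 6.46, 6.43 and 6.90. At 6 dpi *Ccnd3* was at 7.61, 7.55 and 6.96, and the log2 fold change of 3 to 5 dpi against 6 dpi was -0.55 (SE 0.32, adjusted p = 0.27). Without 3 dpi replicate 2 this difference passed the test at -0.76 (adjusted p = 0.0092).

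In 24 tests of the D-type cyclins, 3 genes in 8 comparisons, edgeR called 0, with 1 at an unadjusted p under 0.05, and DESeq2 likewise called 0, with 1 unadjusted. Their differences between 3 to 5 dpi and 1 to 2 dpi, from -0.09 to 0.0014, had standard errors of 0.21 to 0.27. For all 3 genes, an exon overlaps an exon of a gene on the opposite strand (*LTO1*, *Gm43126* and *9330179D12Rik*, and *Bysl*), the setting of the authors' counting for strand was not given in the sources used here, and the counts of these partners reached 243, 2, 16 and 973 at most. The range of the day means was 0.72 for *Ccnd1*, 0.57 for *Ccnd2* and 1.03 for *Ccnd3*, beside SDs between libraries of a day of 0.43, 0.39 and 0.50.

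The E-type cyclins activate Cdk2 at the border of G1 and S phase. *Ccne1* (cyclin E1, chromosome 7, 38097984 to 38107534, minus strand) was at 0.49, 1.19 and 0.44 at 1 dpi and at 0.40, 0.65 and 1.26 at 2 dpi. At 3 dpi it was at 3.58, 3.06, 2.10 and 3.40, at 4 dpi at 2.91, 3.17 and 1.19, and at 5 dpi at 3.18. At 6 dpi it was at 1.72, 1.24 and -0.74. All 4 libraries of 3 dpi lay above all 6 of the first 2 days, 4 dpi replicate 3 fell back among those, and 6 dpi overlapped with 4 dpi. The counts behind these levels were 10 to 52 per library at 1 and 2 dpi, 56 to 133 at 3 dpi and 6 to 49 at 6 dpi.

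The rise from 2 to 3 dpi was 2.41 on the log2 scale (SE 0.60, adjusted p = 0.034), in a comparison in which 2.94% of all genes were called, 1.82% higher and 1.12% lower. It was the only one of the 10 genes called there, with 3 at an unadjusted p under 0.05. This call was lost when any of the 3 libraries of 2 dpi, or replicate 1 or 4 of 3 dpi, was left out (adjusted p from 0.079 to 0.16), and the log2 fold change then stayed between 2.21 and 2.72. From 3 to 5 dpi against 1 to 2 dpi, *Ccne1* was higher by 2.29 (SE 0.44, adjusted p = 0.0021), and 7 of the 8 libraries lay above all 6 earlier ones. Against 6 dpi it was higher by 1.99 (SE 0.57, adjusted p = 0.029), with 7 of 8 libraries above all 3 of 6 dpi, and this call was lost without 4 dpi replicate 2 (adjusted p = 0.051), 6 dpi replicate 2 (0.11) or 6 dpi replicate 3 (0.062, log2 fold change 1.53). The step from 4 to 6 dpi alone, -1.66 (SE 0.61), did not pass the test (adjusted p = 0.15), and neither did 6 against 1 dpi at 0.32 (SE 0.62, adjusted p = 0.78). Over the whole time course, *Ccne1* changed with an adjusted p of 0.0079.

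*Ccne2* (cyclin E2, chromosome 4, 11191351 to 11204779, plus strand), its close relative, was at 0.20, 1.56 and 0.09 at 1 dpi, 0.66, 1.56 and 1.75 at 2 dpi, and 1.95, 2.45, 2.27 and 2.03 at 3 dpi. It was at 2.38, 2.43 and 1.25 at 4 dpi, 0.77 at 5 dpi, and -0.76, -0.29 and 0.99 at 6 dpi. The 3 dpi libraries lay above those of 2 dpi and the 6 dpi libraries below those of 4 dpi, without overlap in either case. The difference of 6 against 4 dpi was -2.08 (SE 0.63) with an adjusted p of 0.098, and that of 3 against 2 dpi was 0.82 (SE 0.57, adjusted p = 0.48), so neither passed the test. The pair of cyclin E genes differed in the 5 dpi library, where *Ccne1* was near its 3 dpi level and *Ccne2* near its 1 dpi level, in a single library and with no test. From 3 to 5 dpi against 6 dpi, *Ccne2* was 1.63 higher (SE 0.58, adjusted p = 0.075), and without the 5 dpi library (2.12, adjusted p = 0.020) or without 6 dpi replicate 3 (2.43, adjusted p = 0.019) this difference passed the test. Without 6 dpi replicate 3, the difference of 6 against 4 dpi also passed (-2.89, adjusted p = 0.018). An exon of *Ccne2* overlaps one of *Ints8* on the opposite strand, which had up to 307 counts.

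*E2f1* (chromosome 2, 154559407 to 154569892, minus strand) encodes the activator E2F whose release by the pocket proteins starts the S phase programme. It was at 0.20, 2.22 and 2.09 at 1 dpi, 2.14, 1.54 and 2.25 at 2 dpi, and 2.72, 3.70, 1.92 and 2.77 at 3 dpi. It was at 3.63, 2.81 and 2.07 at 4 dpi, 3.23 at 5 dpi, and 2.00, 2.97 and 2.18 at 6 dpi. Of the 8 libraries from 3 to 5 dpi, 6 lay above all 6 of the first days, and 3 dpi replicate 3 and 4 dpi replicate 3 lay among them. The difference, 1.18 (SE 0.38), missed the threshold with an adjusted p of 0.067, and *E2f1* was called by DESeq2 at an adjusted p of 0.028. It was also called without 3 dpi replicate 3 (1.23, adjusted p = 0.048) or 4 dpi replicate 3 (1.25, adjusted p = 0.043). The lowest value, 1 dpi replicate 1, belonged to the library with the fewest counts, and without it the difference was 0.97 (adjusted p = 0.12).

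**Figure D2:**
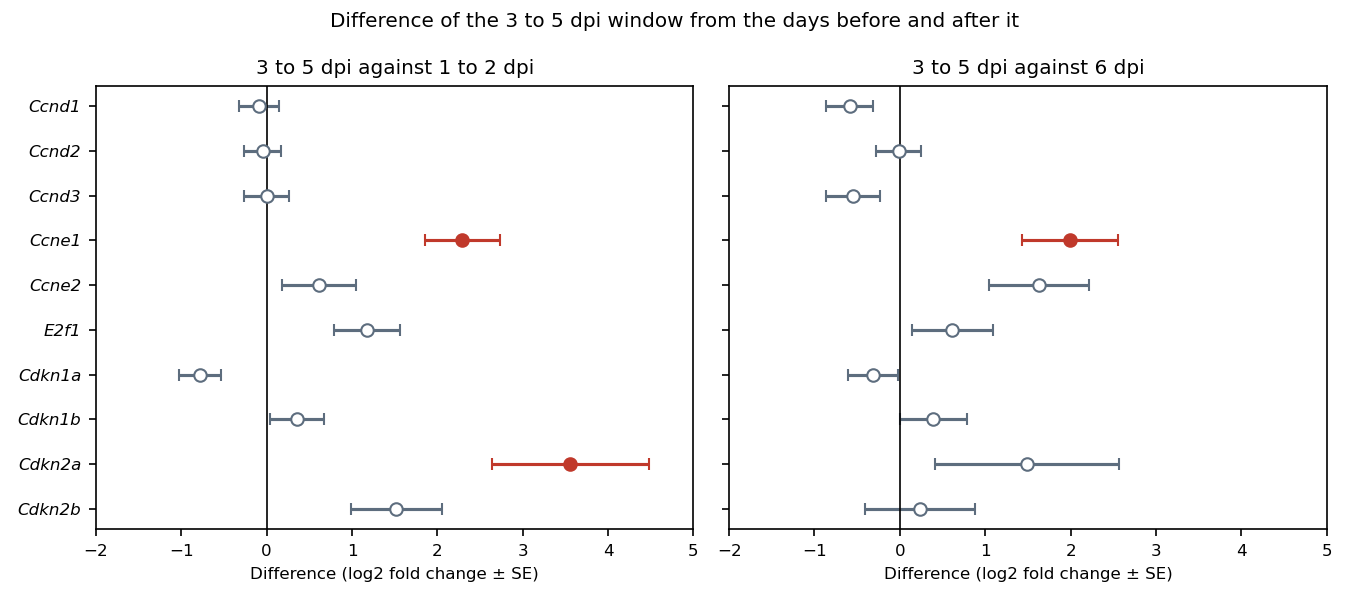
Log2 fold change of 3 to 5 dpi against 1 to 2 dpi (left) and against 6 dpi (right) for each of the 10 genes, with whiskers for the standard error and filled points where the adjusted p was under 0.05. *Ccne1* was higher than on both sides of the window (2.29 and 1.99), *Cdkn2a* higher than on the first days (3.56), and the other genes did not pass.

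The CIP/KIP inhibitors restrain cyclin-kinase complexes. *Cdkn1a* (p21, chromosome 17, 29090976 to 29100727, plus strand) is induced by p53 and by many stress and differentiation signals. It was counted 2859 to 18353 times per library. It was at 8.81, 9.11 and 9.29 at 1 dpi, 9.94, 9.47 and 8.67 at 2 dpi, and 8.42, 9.27, 8.57 and 8.90 at 3 dpi. It was at 8.40, 8.26 and 8.56 at 4 dpi, 8.22 at 5 dpi, and 9.21, 8.95 and 7.97 at 6 dpi. The 3 libraries of 4 dpi and the 5 dpi library lay below all 6 of 1 and 2 dpi, and 3 and 6 dpi overlapped with both. The difference of 3 to 5 dpi from 1 to 2 dpi was -0.78 (SE 0.25) with an adjusted p of 0.062. It passed the test with DESeq2 (adjusted p = 0.020). Without 2 dpi replicate 3, 3 dpi replicate 2, 4 dpi replicate 3 or 6 dpi replicate 3 it passed the test in edgeR (-0.92 to -0.78).

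*Cdkn1b* (p27, chromosome 6, 134920401 to 134925513, plus strand), the inhibitor best known from quiescent cells, where its protein is held high mainly after transcription, changed over the whole time course (adjusted p = 0.034). It was at 1.83, 1.88 and 2.77 at 1 dpi and 2.49, 1.54 and 1.36 at 2 dpi. At 3 dpi it was at 3.01, 4.16, 3.11 and 2.84. At 4 dpi it was at 1.64, 2.10 and 1.99, at 5 dpi at 1.92, and at 6 dpi at 1.96, 1.96 and 2.15. The 4 libraries of 3 dpi, 2.84 to 4.16, lay above all 13 others, 1.36 to 2.77, and the levels of 4, 5 and 6 dpi lay between 1.64 and 2.15. The step up from 2 to 3 dpi was 1.53 (SE 0.42, adjusted p = 0.055) and the step down from 3 to 4 dpi was -1.49 (SE 0.43, adjusted p = 0.067), so that neither step passed alone. The highest value was again 3 dpi replicate 2, and without it the adjusted p over the time course was 0.17 and the steps were 1.13 and -1.09. Without 2 dpi replicate 1 the step up was 1.97 and passed (adjusted p = 0.044). The change over the time course was also lost when any of 8 other libraries was left out (highest adjusted p 0.064).

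The INK4 inhibitors are neighbours on chromosome 4. *Cdkn2a* (89274471 to 89294653, minus strand) encodes p16Ink4a, which blocks Cdk4 and Cdk6, and p19Arf, which restrains Mdm2 and so raises p53. Their transcripts share the 3′ end, so 3′ counts hold them together. The counts were 0, 10 and 0 at 1 dpi, 11, 1 and 0 at 2 dpi, and 26, 14, 42 and 26 at 3 dpi. They were 30, 16 and 2 at 4 dpi, 47 at 5 dpi, and 18, 13 and 2 at 6 dpi. A count of 0 here allows a level of up to 0.152 to 0.374 CPM, and all 4 libraries of 3 dpi were above those of 1 and 2 dpi. In log2 CPM, 7 of the 8 libraries from 3 to 5 dpi lay above all 6 of the first days, and 4 dpi replicate 3, at -1.51, lay among them. The difference was 3.56 (SE 0.92, adjusted p = 0.020), a fold that rests on few counts on the first days, and without the 5 dpi library it was 3.02 (adjusted p = 0.062). It was also lost without 2 dpi replicate 2 (3.33, adjusted p = 0.054), and it was 5.66 without 1 dpi replicate 2, which held all of the counts of that day. Against 6 dpi the difference, 1.49 (SE 1.08), did not pass the test (adjusted p = 0.38).

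*Cdkn2b* (p15Ink4b, 89306299 to 89311039, minus strand) is a classical target of TGF-beta. It was at -2.85, 2.64 and 1.79 at 1 dpi, 2.37, 1.73 and 2.14 at 2 dpi, and 2.11, 2.63, 3.19 and 3.86 at 3 dpi. It was at 2.12, 1.70 and 3.70 at 4 dpi, 4.45 at 5 dpi, and 3.27, 1.93 and 3.81 at 6 dpi. The 5 dpi library was the highest, and the lowest, at 0 counts, was the library with the fewest counts in all, 1 dpi replicate 1, beside 148 counts in replicate 2 of that day. The difference of 3 to 5 dpi from 1 to 2 dpi was 1.52 (SE 0.53, adjusted p = 0.090), and without the 5 dpi library it was 1.01 (adjusted p = 0.30). It passed the test with DESeq2 (1.56, adjusted p = 0.031) and in edgeR when every gene with at least 1 count was tested (adjusted p = 9.5e-05). *Cdkn2b* had the largest SD between libraries of a day among the 10 genes, 1.46 on the log2 scale.

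Counted together, 2 of the 10 genes changed over the whole time course, where 15% of all genes tested did. From 3 to 5 dpi against 1 to 2 dpi, 2 of 10 were called and both were higher, beside 7.48% of all genes called, 5.25% higher and 2.24% lower, and the median log2 fold change of the 10 was 0.48 against -0.00072 for all genes. Against 6 dpi, 1 of 10 was called, where 11.5% of all genes were, 5.29% higher and 6.25% lower, and the median was 0.31 against 0.0091. Between 1 and 2 dpi, where 0.178% of all genes were called, 0.157% higher and 0.0214% lower, edgeR called 0 of 10, with 0 at an unadjusted p under 0.05, and DESeq2 0. From 3 to 4 dpi (2.71% of all genes, 1.63% higher and 1.08% lower) edgeR called 0, with 1 unadjusted, and DESeq2 called *Cdkn1b*. From 4 to 6 dpi (0.513%, of which 0.235% higher and 0.278% lower) edgeR called 0, with 2 unadjusted, and DESeq2 called *Ccne2*, and between 1 and 6 dpi (12.1%, of which 6.91% higher and 5.21% lower) edgeR and DESeq2 each called 0, with 0 unadjusted in edgeR.

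**Figure D3:**
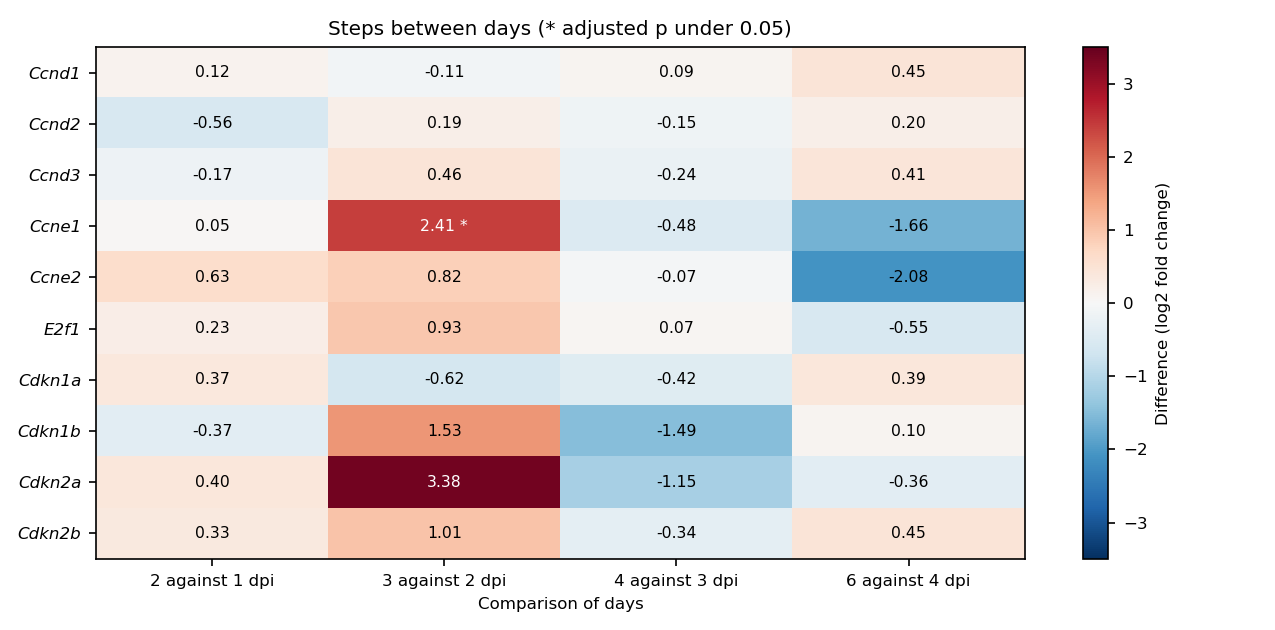
Log2 fold change of each of the 10 genes (rows) for 4 steps between days (columns), red for higher and blue for lower on the later day, with an asterisk where the adjusted p was under 0.05. The rise of *Ccne1* from 2 to 3 dpi (2.41) is the single step that passed, *Cdkn1b* has a step of 1.53 up and -1.49 down around 3 dpi, and the D-type cyclins stay within 0.56 of 0.

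In the order of their day means, *Ccne1*, *E2f1*, *Cdkn2a* and *Cdkn2b* were highest in the single 5 dpi library, *Ccne2* and *Cdkn1b* at 3 dpi, *Cdkn1a* at 2 dpi, *Ccnd2* at 1 dpi, and *Ccnd1* and *Ccnd3* at 6 dpi. Most neighbours in these orders differed by less than the larger SD of the pair. For *Ccne1*, the gap between 4 dpi (2.42 ± 1.08) and 2 dpi (0.77 ± 0.44, SD, n = 3 each) was larger than this SD, while 5, 3 and 4 dpi on one side and 2, 6 and 1 dpi on the other did not differ beyond it. For *Cdkn1b*, the gap between 3 dpi (3.28 ± 0.60, SD, n = 4) and the next day in order, 1 dpi (2.16 ± 0.53), was the only one beyond the SD. For *Cdkn2a*, the gaps from 5 to 3, from 3 to 4 and from 6 to 2 dpi were.

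The genes around these members were described from lists of related genes. Their counts stand beside 15% of all genes called over the time course. From 3 to 5 dpi against 1 to 2 dpi, 5.25% of all genes were called higher and 2.24% lower. Against 6 dpi these shares were 5.29% and 6.25%. Of 7 genes for G1 kinases, their activator and pocket proteins, 0 were called over the time course by edgeR, with 1 at an unadjusted p under 0.05, and DESeq2 called 1. *Rbl1*, which encodes the pocket protein p107, came closest (adjusted p = 0.095), with a difference of 1.57 (SE 0.53, adjusted p = 0.058) between 3 to 5 dpi and 6 dpi. *Cdk6* (0.35, SE 0.15, adjusted p = 0.18), *Cdc25a*, a phosphatase that activates Cdk2 (0.47, SE 0.26, adjusted p = 0.32), and *Cdk4*, the partner of the D-type cyclins (0.50, SE 0.29, adjusted p = 0.34), did not pass the test between 3 to 5 dpi and 1 to 2 dpi. In that comparison, edgeR and DESeq2 each called 0 of the 7, with 1 unadjusted in edgeR.

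Of 9 other E2F and DP factors, 4 changed over the time course and 3 were higher from 3 to 5 dpi than on the first days, with a median of 0.61. *E2f7* and *E2f8*, the atypical E2Fs that repress E2F targets late in S phase, had differences of 3.25 (SE 0.54, adjusted p = 0.00062) and 3.17 (SE 0.84, adjusted p = 0.022). *E2f8* was at 0 counts in 3 libraries. *Tfdp2*, a dimer partner of E2F, was higher by 0.76 in the same comparison (SE 0.22, adjusted p = 0.042). Its day means, in order from 1 to 6 dpi, were 1.8, 3.13, 3.64, 2.91, 3.18 and 3.47. The mean of 1 dpi was thus the lowest, and that of 2 dpi already lay above that of 4 dpi. *Tfdp1*, the other partner of E2F, was higher from 3 to 5 dpi than at 6 dpi, by 1.14 (SE 0.29, adjusted p = 0.016).

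Of 6 genes for other inhibitors and for the turnover of p27, 3 changed over the time course and 1 was higher from 3 to 5 dpi than on the first days, with a median of 0.33. This was *Skp2*, the ubiquitin ligase subunit that marks p27 for breakdown, with 1.49 (SE 0.24, adjusted p = 0.00041), and it fell again by 1.61 from 4 to 6 dpi. *Cks1b*, its cofactor for p27, was higher than at 6 dpi by 0.99 (SE 0.31, adjusted p = 0.046). *Cdkn2c*, the INK4 inhibitor p18, changed over the time course (adjusted p = 0.049), with its highest day mean, 5.12, at 2 dpi, and *Cdkn2d*, p19Ink4d, missed the threshold (adjusted p = 0.057).

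Of 15 E2F target genes, which serve DNA replication and the later cycle, 11 changed over the time course, 6 were higher from 3 to 5 dpi than on the first days with a median of 0.83, and 10 were higher than at 6 dpi with a median of 1.38. None was lower in either comparison. *Mki67*, a marker of cycling cells, was 2.94 higher from 3 to 5 dpi than on the first days (SE 0.30, adjusted p = 3.2e-06). *Ccna2*, cyclin A2, was 2.43 higher (SE 0.34, adjusted p = 9.4e-05) and *Tyms*, thymidylate synthase, 1.48 higher (SE 0.22, adjusted p = 0.00016). Day means at 1, 2 and 3 dpi were 0.93, 3.55 and 5.47 for *Mki67* and 1.51, 4.01 and 5.48 for *Ccna2*, which were thus already higher at 2 dpi. For *Tyms* they were 4.72, 5.15 and 6.76. From 1 to 2 dpi, edgeR called 1 of the 15 genes higher, beside 0.157% of all genes, and their median was 0.18. *Pcna*, the sliding clamp of the replication fork, differed from the first days by 0.44 (SE 0.29, adjusted p = 0.40) and was higher than at 6 dpi by 1.54 (SE 0.38, adjusted p = 0.014). The summed level of the 15 genes was 806 to 1070 CPM at 3 dpi, 358 to 503 at 4 dpi, 223 to 484 on the first 2 days and 153 to 308 at 6 dpi.

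**Figure D4:**
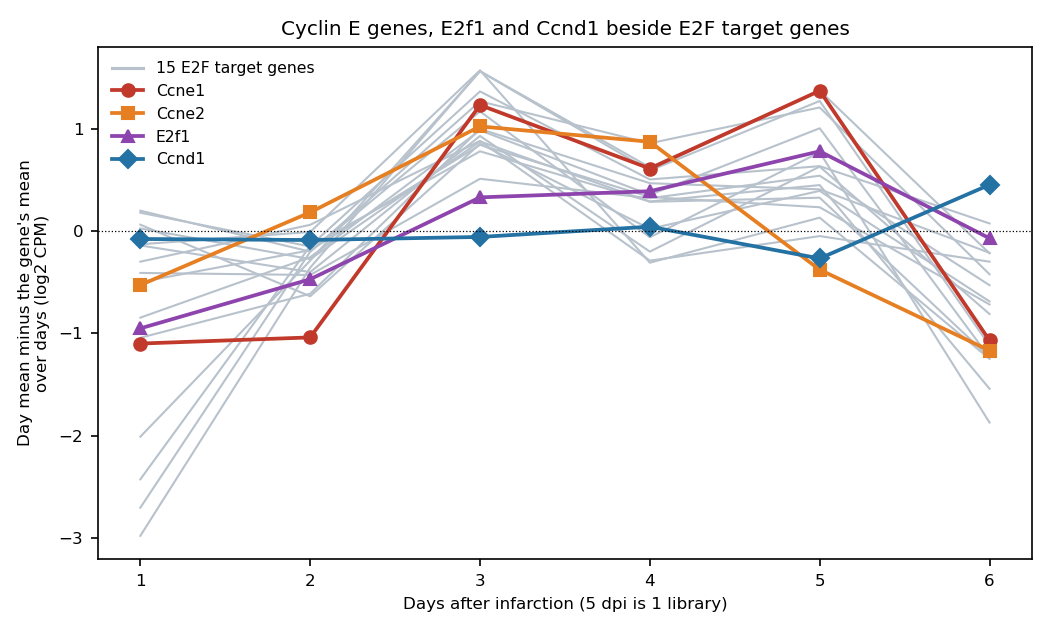
Mean level of a day minus the gene's mean over the 6 days, in log2 CPM (vertical axis), against days after infarction, for *Ccne1*, *Ccne2*, *E2f1* and *Ccnd1* (coloured) and 15 E2F target genes (grey). *Ccne1* is high from 3 to 5 dpi and low at 6 dpi, *Ccne2* is high at 3 and 4 dpi, and *Ccnd1* is highest at 6 dpi.

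Beside *Cdkn1a*, 15 genes for p53 and its targets were described. Of these, 6 changed over the time course, beside 15% of all genes. From 3 to 5 dpi against the first days, 1 was higher and 1 lower, beside 5.25% and 2.24% of all genes, and the median was -0.09. *Plk2*, a kinase induced by p53 and by serum, was the higher one, by 1.46 (SE 0.21, adjusted p = 0.00013), and *Bax*, a pore-forming mediator of apoptosis, was the lower one, at -0.57 (SE 0.17, adjusted p = 0.049). *Trp53*, p53 itself, differed by 0.12 (SE 0.30, adjusted p = 0.87). *Bbc3*, which encodes the apoptosis inducer Puma, was lower than at 6 dpi, at -0.77 (SE 0.24, adjusted p = 0.047). *Trp53inp1*, a p53-induced nuclear protein, was higher at 4 than at 3 dpi by 1.83 (SE 0.36, adjusted p = 0.0098), and *Gadd45a*, a growth arrest gene, changed over the time course (adjusted p = 0.026).

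Of 8 mitogen response genes, 2 changed over the time course. *Spry2* (adjusted p = 0.062) and *Fos* (0.22) came next and did not pass. The called genes were *Myc*, higher from 3 to 5 dpi than at 6 dpi by 0.89 (SE 0.22, adjusted p = 0.014), and *Fosl1*, an AP-1 subunit, by 2.59 (SE 0.65, adjusted p = 0.016). The day mean of *Fosl1* was 5.45 at 1 dpi, 3.40 at 2 dpi and 4.71 at 3 dpi. Against the first days edgeR called 0 of the 8, with 2 unadjusted, and DESeq2 called 0. Of 6 TGF-beta response genes, the signal that induces *Cdkn2b*, 2 changed over the time course. *Smad7*, a feedback inhibitor of the pathway, was 1.13 higher from 3 to 5 dpi than at 6 dpi (SE 0.22, adjusted p = 0.0045). *Pmepa1* (adjusted p = 0.063) and *Skil* (0.20) did not pass over the time course. Against the first days edgeR called 0 of the 6, with 2 unadjusted, and DESeq2 called 1.

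**Figure D5:**
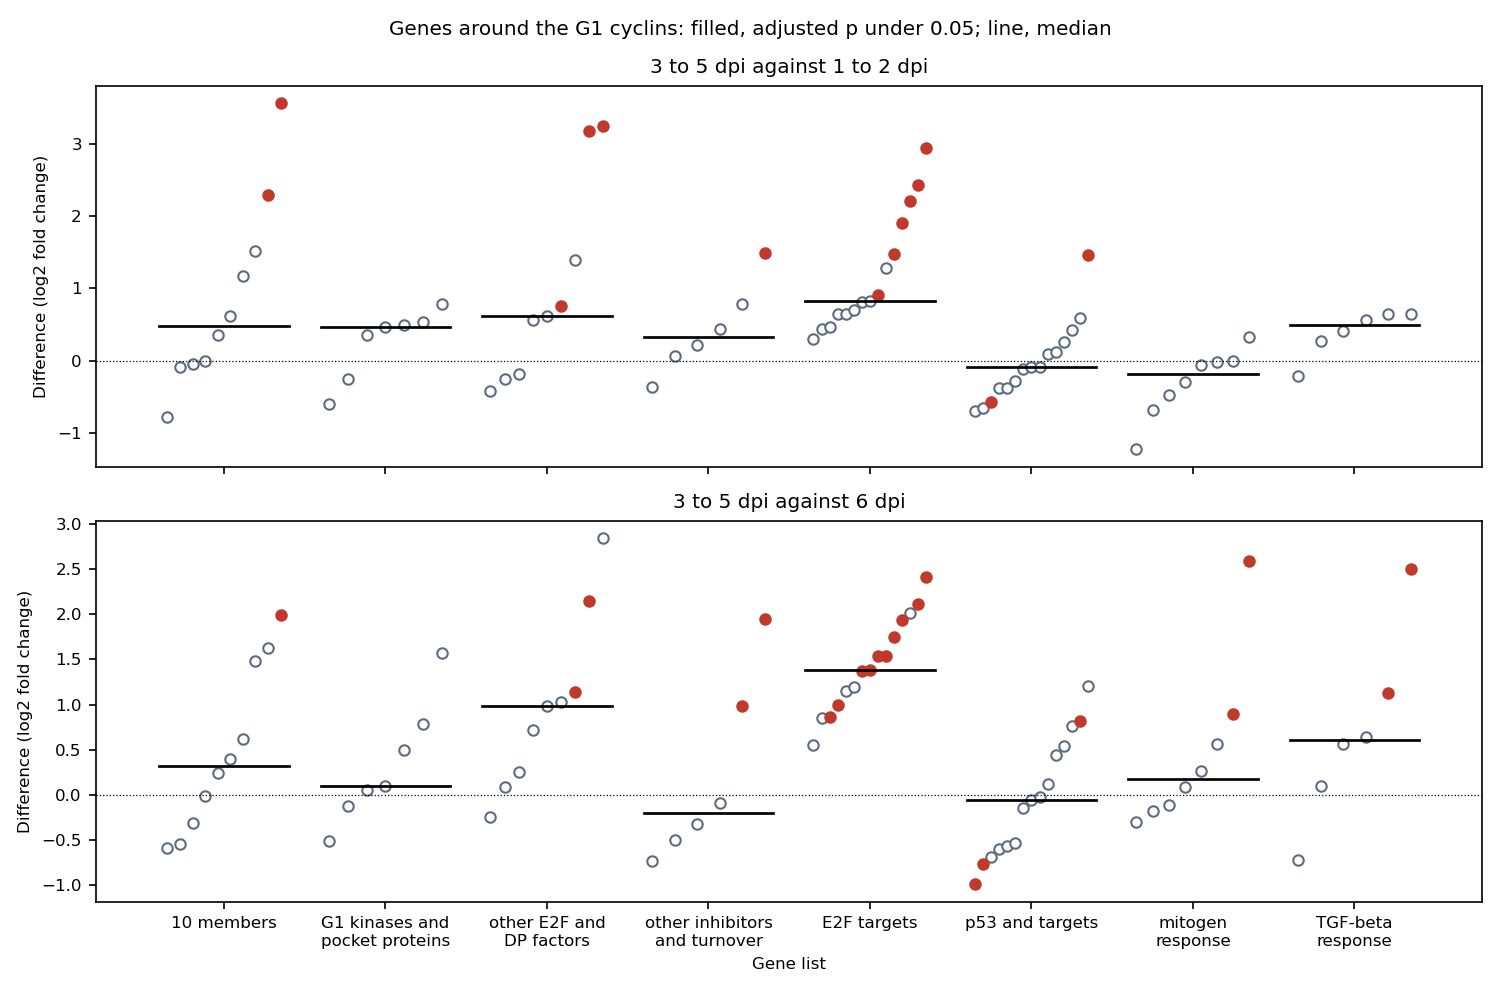
Log2 fold change of 3 to 5 dpi against 1 to 2 dpi (top) and against 6 dpi (bottom) for the 10 genes and 7 lists of related genes, 1 point per gene, filled where the adjusted p was under 0.05, with the list's median as a line. The E2F targets have the highest medians, 0.83 and 1.38, and none of their 15 genes is below 0.

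Markers of other cell types moved over the same days. Of 5 mural cell genes, 3 were higher from 3 to 5 dpi than on the first days, beside 5.25% of all genes. The summed level of the 5 was 31.7 to 62.7 CPM at 1 and 2 dpi and 76.7 to 173 CPM from 3 to 5 dpi. Of 5 cardiomyocyte genes, 4 were lower from 3 to 5 dpi than at 6 dpi, beside 6.25% of all genes. The days of the window differed in the summed level of the 5. It was 6.02 to 11.5 CPM at 3 dpi, 24.9 to 48.1 at 4 dpi, 8.95 at 5 dpi and 48.9 to 81.5 at 6 dpi. At 4 dpi, 2 of the 5 were higher than at 3 dpi, beside 1.63% of all genes. Of 6 endothelial genes, 5 were tested and 1, *Egfl7*, changed over the time course (adjusted p = 0.0085). Of 8 leukocyte genes, 6 were tested and *Lyz2* was the one called higher. The part of these cells in the levels of the cyclins and inhibitors was not tested. The 10 libraries in which Y-linked counts were the greater leave out 1 dpi replicate 1 and all of 4 and 6 dpi. Among them, *Ccne1* was higher at 3 and 5 dpi than on the first days by 2.41 (adjusted p = 0.0036), *Cdkn2a* by 3.93 (adjusted p = 0.035) and *Cdkn2b* by 1.61 (adjusted p = 0.027). The single 5 dpi library weighs as much there as the 4 libraries of 3 dpi together. When it was left out of the fit of all days, *Cdkn2b* differed by 1.01 (adjusted p = 0.30).

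For each member, the genes most like it were taken by Pearson's r of log2 CPM over the 17 libraries among 8918 or 8919 genes with a mean of at least 100 counts. Libraries of the same day share that day, so r is a description. *Ccne1* was most like *Rfc5* (r = 0.90), a subunit of the replication clamp loader, *Chaf1b* (0.89), a histone chaperone subunit, and *Dut* (0.88), which clears dUTP. *Ccne2* was most like *Gmnn* (0.84), the inhibitor of re-replication, *Pex2* (0.83), a peroxisome gene, and *Actr2* (0.82), an actin-related gene. *E2f1* was most like *Tpmt* (0.86), *Cenpm* (0.84) and *Tacc3* (0.82), of which the last 2 serve mitosis. *Cdkn2a* was most like *Dnajc10*, *Azin2* and *Kif22* (0.84 each). *Cdkn1b* was most like *Ggt7* (0.88), *H2afy* and *Gadd45b* (0.87 each). *Cdkn2b* was most like *Plscr2* (0.87), *Prrt4* and *Ctsk* (0.86 each), the last of which encodes the collagenase cathepsin K. *Ccnd3* had the highest r of the 10, 0.93 with *Nfic* and with *Ptpa*, and 0.92 with *Atn1*. *Ccnd2* was most like *Snrnp27* (0.86), *1700037H04Rik* (0.83) and *Itfg2* (0.82), and *Ccnd1* like *Pea15a* (0.80), *Slc29a1* (0.77) and *Lamtor1* (0.76). *Cdkn1a* was most like *6030408B16Rik* (0.88), *Rogdi* (0.83) and *Phf3* (0.80).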

How the data were processed

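Sorted mouse CFs were profiled by RNA-seq in 17 libraries. For these, the authors used bcl2fastq (1.2.4) for demultiplexing, STAR for alignment to mm10 and featureCounts for gene counts, and deposited raw counts without normalization. No collapsing of duplicates is named, so limits from depth cover counting error only. The members and lists were chosen with earlier results of these data known, and the window from 3 to 5 dpi is the study's own. The filter kept a gene if 3 libraries or more had 10 counts or more. The main test was the quasi-likelihood F-test of edgeR (4.0.16, R 4.3.3) with TMM factors, 6 days as groups, Benjamini-Hochberg adjustment over 14030 genes and a threshold of 0.05, where the study's methods name DESeq2. The SE is the log2 fold change over the square root of F. The study's methods call the replicates biological, and p-values measure the spread between these libraries. The window is the mean of its 3 days, and 5 dpi is 1 library. For log2 CPM the prior count was 2. From each list, up to 4 genes with the lowest p over the time course and those under 10 counts in 15 libraries are named, and others after their values were seen. 1 item of a list is not reported here. Positions are from GENCODE vM21. The alternatives were DESeq2 (1.42.0) and its size factors, upper-quartile normalization, other filters, a robust spread, the replicate number as a block, the compared days alone, libraries of 1 sex-linked pattern, no 5 dpi library and each library left out. The scripts were tested on simulated data, for 3 to 5 dpi against 1 to 2 dpi. In these data, edgeR called 35 of 100 genes given a log2 fold change of size 1, and 74 of 100 given size 2.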

Additional observations from a re-analysis of the deposited data

Results flagged for a closer look

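*Ccnd1* at 3 dpi had 1 library far from the other 3. Replicate 1 was at 6.02 log2 CPM and the others at 6.51, 6.51 and 6.55, and the gap divided by the range was 0.917, above Dixon's 95% critical value for 4 libraries. This was 1 of 10 genes examined, 3 dpi being the only day with more than 3 libraries, and chance alone marks about 1 in 20.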

How the results depend on the processing

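None of the single-gene differences between days that were recomputed, which are those called or near a call, reversed. The difference of *Ccne1* between 6 and 1 dpi, 0.32 and not called, turned to -0.24 without 6 dpi replicate 1. *Ccne1* kept its call over the time course and from 3 to 5 dpi against 1 to 2 dpi under all alternatives in which it was tested (adjusted p at most 0.024 and 0.0097). With genes of at least 10 counts in every library only 5 of the 10 were tested, which limits those counts. Against 2 members called over the time course, DESeq2 and a filter of at least 1 count each called 4, at least 10 counts in every library 1, and left-out libraries 1 to 4. From 3 to 5 dpi against 1 to 2 dpi (2 called), DESeq2 and at least 1 count each called 5, at least 10 counts in every library 0, no 5 dpi library 1, and left-out libraries 1 to 4. Against 6 dpi (1 called), DESeq2 and no 5 dpi library each called 2, at least 10 counts in every library and only the days compared each 0, and left-out libraries 0 to 2. From 2 to 3 dpi (1 called), DESeq2 and at least 1 count each called 3 and left-out libraries 0 to 1. With 0 called, DESeq2 and at least 1 count each called 1 for 4 against 3 dpi, DESeq2 1 for 6 against 4 dpi (left-out libraries 0 to 1) and at least 1 count 1 for 6 against 1 dpi. For lists over the time course, DESeq2 called 1 of the G1 kinases and pocket proteins and 5 of the other inhibitors, and at least 1 count called 2 of the former and 4 of the TGF-beta genes. From 3 to 5 dpi against 1 to 2 dpi, DESeq2 called 2 other inhibitors and 1 TGF-beta gene, and at least 1 count 2 other inhibitors, 1 p53 gene, 2 mitogen genes and 1 TGF-beta gene. Without the 5 dpi library the highest day mean moved to 3 dpi for *Ccne1* and *Cdkn2a*, 4 dpi for *E2f1* and 6 dpi for *Cdkn2b*. The other causes were not tested. Of all genes, 2099 were called over the time course against 3757 by DESeq2 and 3729 with at least 1 count. For 2 against 1 dpi, 25 were called against 104, 153, 10 with at least 10 counts in every library, 63 with the compared days alone and 8 in 1 sex-linked pattern. From 2 to 3 dpi, 412 were called against 1042, 980 and, with the compared days alone, 252. From 3 to 4 dpi, 380 were called against 879, 866 and 125. From 4 to 6 dpi, 72 were called against 807, 882, 14, 140 with at least 10 counts in every library and 11 in 1 sex-linked pattern. From 3 to 5 dpi against 6 dpi, 1619 were called against 2394 by DESeq2, 1944 without the 5 dpi library and 926 with the compared days alone. With at least 10 counts in every library, 1684 of 10341 were called there. From 3 to 5 dpi against 1 to 2 dpi, 1050 of 14030 were called against 1555 by DESeq2 and 861 without the 5 dpi library. There, at least 1 count gave 1486 of 20569 and at least 10 counts in every library 767 of 10341. For 6 against 1 dpi, 1700 were called against 2194 of 20569 with at least 1 count. With 1 library left out, genes called ranged from 1307 (6 dpi replicate 1) to 3466 (3 dpi replicate 2) over the time course, up to 1601 (3 dpi replicate 2) from 3 to 5 dpi against 1 to 2 dpi and 299 (6 dpi replicate 2) to 2937 (3 dpi replicate 2) against 6 dpi. They ranged from 13 to 32 for 2 against 1 dpi, 46 (2 dpi replicate 2) to 734 (3 dpi replicate 2) for 3 against 2 dpi, 126 (4 dpi replicate 2) to 722 (3 dpi replicate 2) for 4 against 3 dpi, 3 (4 dpi replicate 2) to 1402 (6 dpi replicate 3) for 6 against 4 dpi, and 763 (6 dpi replicate 2) to 2577 (6 dpi replicate 3) for 6 against 1 dpi.

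The replicate numbers did not pair the libraries (mean correlation of deviations 0.0049 over 30 same-numbered pairs and -0.0053 over 72 others). With the replicate number as a block, 1 member was called over the time course (*Cdkn1b* lost, adjusted p = 0.078) and 0 from 2 to 3 dpi (*Ccne1*, 2.05, adjusted p = 0.10), 1 other inhibitor over the time course and 1 p53 gene from 3 to 5 dpi against 1 to 2 dpi. Of all genes, the block left 174 called for 3 against 2 dpi, 243 for 4 against 3 dpi and 28 for 6 against 4 dpi. Depth limits *Cdkn2a* most, at 0 to 47 counts.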
